A study of Rattus with 6 samples.

Results

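The interferon-stimulated effector genes are the genes whose products carry out the antiviral state that interferons induce in a cell. The 35 genes described here were taken from a list of symbols, and each of the 35 was found among the 30211 genes of the count table. RNA was sequenced from rat bone marrow mesenchymal stem cells (labelled BMSC, tissue bone, genotype WT), the adherent stromal cells of marrow that can form bone, fat and cartilage. In 3 libraries the cells had been cultured with 100 uM dexamethasone, a synthetic glucocorticoid, up to day 4. The other 3 libraries came from control cells collected on the same day, and the sources used here do not say whether these received vehicle, nor do they give strain, age or sex. Titles and descriptions set the groups here, since all 6 samples carry DEX as their treatment tag. Separate cultures or animals are not recorded for the replicates, and the p-values below therefore cover only the spread between libraries, which may be technical.

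Interferons bind receptors that activate the kinases JAK1 and TYK2, which phosphorylate transcription factors of the STAT family. With IRF9 these form a complex that enters the nucleus and switches on a large set of target genes. The products of those targets sense foreign nucleic acid, degrade or mark viral RNA, starve viruses of nucleotides, block virus entry and release, and modify host proteins with ISG15, ubiquitin or ADP-ribose. Many of the targets are also expressed at a low tonic level with no infection, and some are reached through other routes such as IRF3 or NF-kB. Mesenchymal stromal cells respond to interferons, and glucocorticoids are known to restrain interferon signalling in immune cells.

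Library totals ranged from 34835072 to 41676315 counts, and levels below are TMM-scaled CPM (counts relative to a common library size). The known glucocorticoid receptor targets Fkbp5, Tsc22d3 and Per1 had log2 rises of 4.30, 2.88 and 1.63, so the group labels and the response to the drug went together. Nr3c1, which encodes that receptor, fell by 0.44. Of 11 stromal markers 10 were tested, with 4 rises (40%) and 5 falls (50%), against 32.3% and 31.7% of all tested genes. Their log2 fold changes ran from -3.27 to 1.79. The summed level of the list was 2539 to 2563 CPM with dexamethasone and 3727 to 3779 CPM in the controls. Prrx1, Pdgfrb and Col1a1 fell (log2 -3.27, -2.17 and -0.78), and Col1a1 was still at 665 ± 8.43 CPM with dexamethasone, against 1138 ± 16.4 CPM in the controls (SD, n = 3 each). Lepr, another stromal marker named with its values in view, was low in both groups but higher with dexamethasone. It was at 0.912 ± 0.325 CPM with dexamethasone and 0.262 ± 0.0484 CPM in the controls. Of 19 macrophage markers 7 had no count (Adgre1, C1qa, C1qb, Cd163, Tyrobp, Marco and Clec4f), and of 6 tested 0 rose and 3 fell. Those were Cd53, Cd68 and Lyz2 (log2 -3.43, -1.25 and -1.76), and the summed level of the list was 9.19 to 9.75 CPM with dexamethasone against 11.1 to 12.8 CPM in the controls. Of 13 lymphocyte and plasmacytoid dendritic cell markers, Siglech, Cd3d, Cd79a, Cd79b and Nkg7 had no count. That list summed to 70.5 to 74.5 CPM with dexamethasone and 51.2 to 55.1 CPM in the controls, with rises in Tcf4 and Bst1, which stromal cells also express. Endothelial, granulocyte and erythroid markers summed to at most 6.11, 0.907 and 0.468 CPM with dexamethasone and 8.09, 0.974 and 0.836 CPM in the controls. Of these lists 3, 1 and 2 genes were tested. Vwf, Egfl7 and Alas2 fell, Tek rose, and the 1 granulocyte marker tested was not called (log2 -0.58). The part of such cells in the results below was not tested. Dexamethasone replicate 2 stood apart for several of the interferon-stimulated genes, and results that rest on it are given with and without it. No test of the list as a whole was made.

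Of the 35 genes, 20 rose, 6 fell, 6 did not pass the test and 3 were not tested. The test was edgeR's quasi-likelihood test on the 14111 genes that passed the filter on low counts, and genes whose Benjamini-Hochberg adjusted p was under 0.05 were called. In the whole comparison 64.0% of tested genes were called, 32.3% up and 31.7% down. Among the 32 tested members 62.5% rose and 18.8% fell, so the share of rises was above that of all genes and the share of falls below it. The members were chosen with earlier results of these data known, so this contrast only describes them. The median log2 fold change of the 32 was 0.61 (also 0.61 with Zbp1 at its bound), against 0.00 over all tested genes. The summed level of the members was 1041 to 1077 CPM with dexamethasone and 756 to 771 CPM in the controls. At least 2-fold, 6 members rose and 3 fell, against 8.65% and 7.00% of all tested genes. The groups did not overlap for 28 of the 32 tested members, against 66.9% of all tested genes. When a coefficient of variation of 0.2 between replicates was imposed in edgeR, in place of the 3.66% estimated over all genes, 15 members rose and 5 fell, against 14.1% and 12.0% of all tested genes. The 15 include Ifit1 and the 5 include Ifit3, neither called in the main test, and 8 members lost their call. In RNA from whole cultures, fewer cells of a type and less RNA per cell cannot be told apart, and this holds for each difference below.

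**Figure D1:**
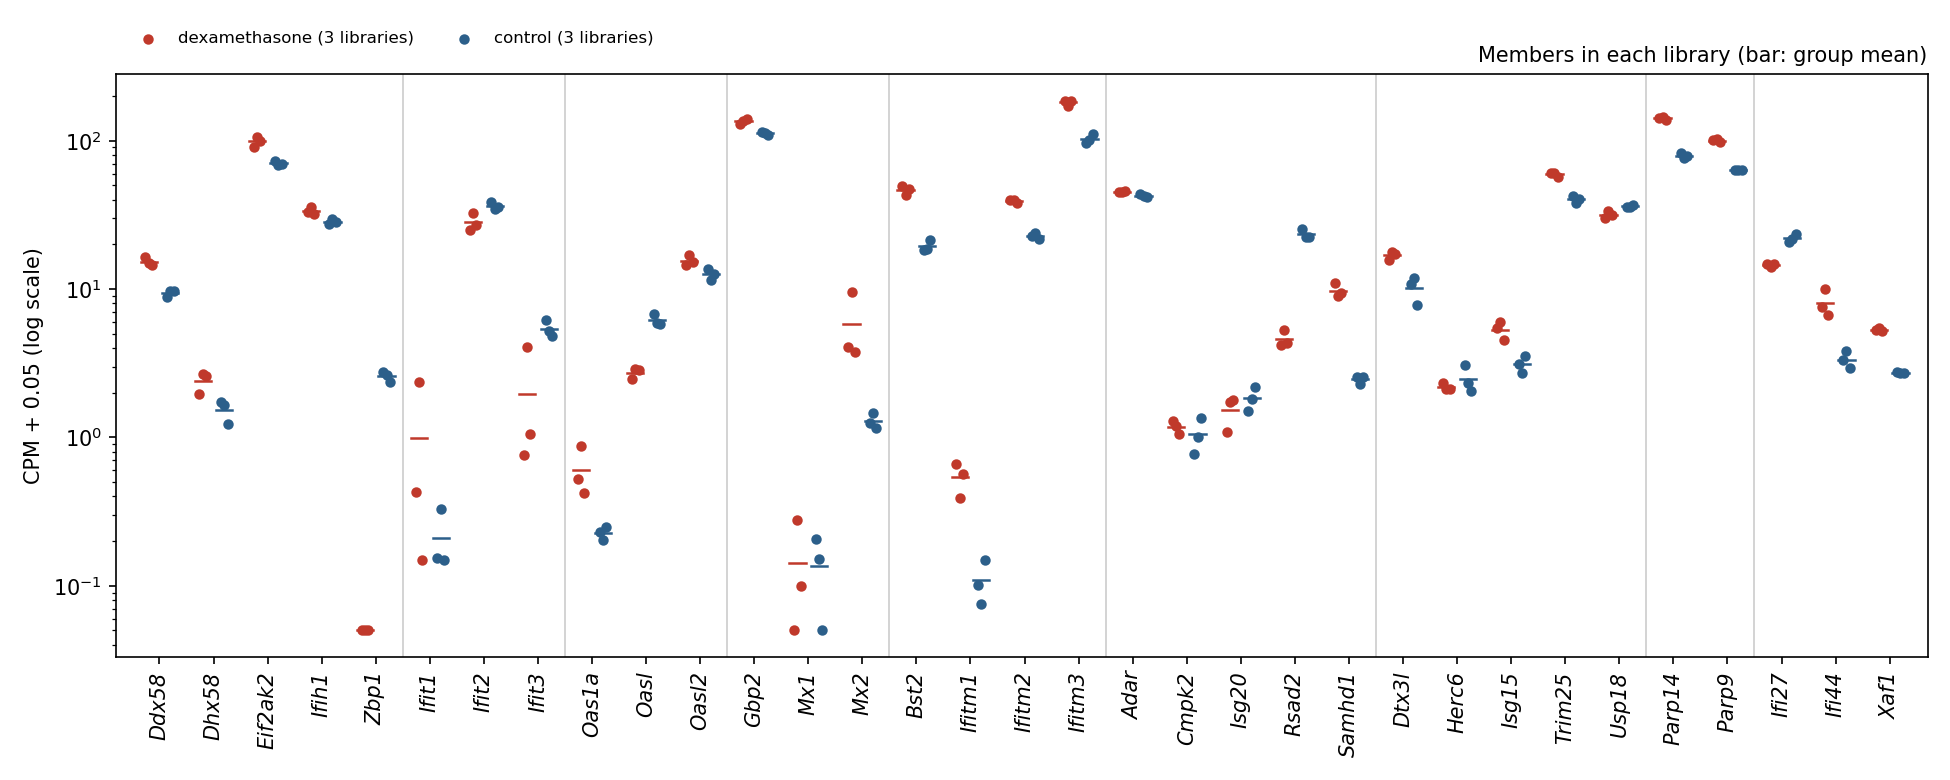
CPM plus 0.05 on a log scale (vertical axis) in each of the 6 libraries for the 33 members with a count, dexamethasone in red on the left and control in blue on the right of each gene, with a bar at the group mean and grey lines between functional classes. Zbp1 has no count in the 3 dexamethasone libraries, and the dexamethasone points of Ifit1, Ifit3 and Mx2 spread widely.

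Per kilobase of exon, Ifitm3 was the most abundant member in both groups, at 259 CPM per kb with dexamethasone and 148 in the controls. Ifitm2, Bst2 and Gbp2 followed with dexamethasone, at 58.8, 55.3 and 54.7 CPM per kb, which were 34.3, 23.1 and 45.1 CPM per kb in the controls. At the other end, Mx1 had 0.0278 CPM per kb with dexamethasone and 0.0258 in the controls. Ifitm1, the remaining membrane member, was far below its relatives, at 0.864 CPM per kb with dexamethasone and 0.104 in the controls. Oas2 and Oas3, oligoadenylate synthetases of chromosome 12, had 0 counts in each library. By a floor of 6 counts, which covers counting error only, such a gene could still be at 0.170 CPM in the shallowest library. Mx1, a dynamin-like GTPase that blocks viral replication, had 10 counts in all with dexamethasone and 10 in the controls and was not tested.

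The nucleic acid sensors split, with 4 rises and 1 fall among 5. Zbp1, a sensor of Z-form nucleic acid that can trigger necroptosis (chromosome 3, 171276062 to 171286537, in the coordinates of the count table), had 0 counts in each dexamethasone library. The controls held 105, 102 and 93 counts of it, or 2.72, 2.58 and 2.32 CPM. Every control library was therefore far above every dexamethasone library, and the level was at least 50-fold lower with dexamethasone by the floor over the group (adjusted p = 1.5e-17, edgeR's quasi-likelihood test). Ddx58, which encodes RIG-I, the receptor for short viral RNA with a triphosphate end, had 16.3, 14.9 and 14.6 CPM with dexamethasone and 8.76, 9.70 and 9.64 CPM in the controls. That is a rise of 0.70 ± 0.068 (SE) on the log2 scale (adjusted p = 5.1e-10, edgeR).

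Among the partners of RIG-I, Ifih1, the long double-stranded RNA receptor MDA5, had 32.8, 35.6 and 32.2 CPM with dexamethasone and 27.3, 29.4 and 28.4 CPM in the controls. Dhx58, the regulatory helicase LGP2, had 1.92, 2.61 and 2.54 CPM with dexamethasone and 1.68, 1.60 and 1.17 CPM in the controls. Both rose, by 0.24 and 0.66 on the log2 scale (adjusted p = 0.00021 and 0.0045, edgeR), and in neither did the groups overlap. Eif2ak2, which encodes the kinase PKR that stops translation on double-stranded RNA, was the most abundant sensor at 98.8 ± 7.22 CPM with dexamethasone and 70.2 ± 2.35 CPM in the controls (SD, n = 3 each). Its rise was 0.49 ± 0.068 (SE) on the log2 scale (adjusted p = 3.7e-12, edgeR). At a coefficient of variation of 0.2, the calls of Ifih1, Dhx58 and Eif2ak2 were not made (adjusted p = 0.55, 0.057 and 0.12), while those of Ddx58 and Zbp1 were.

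The Ifit family, RNA-binding proteins that hold back translation of viral messages, lay in a cluster on chromosome 1, and of its 3 listed members 1 fell and 2 did not pass. Ifit1bl, a gene of that cluster outside the list and named after its values were seen, did not pass either (log2 0.28, adjusted p = 0.47, edgeR). Ifit2 (chromosome 1, 252894663 to 252900726), the most abundant of the family, had 24.8, 32.7 and 27.1 CPM with dexamethasone and 38.5, 34.4 and 35.5 CPM in the controls. It fell by 0.36 on the log2 scale (adjusted p = 0.0014, edgeR). Replicate 2 was the highest of the dexamethasone libraries and came close to the lowest control, without overlap. The call was not made at a coefficient of variation of 0.2 (adjusted p = 0.32).

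Ifit3, which lies 5507 bases downstream of Ifit2, had 0.711, 4.00 and 1.01 CPM with dexamethasone and 6.17, 5.17 and 4.75 CPM in the controls. All 3 dexamethasone libraries were below all 3 controls, but replicate 2 was much closer to them than the others, and the gene did not pass (log2 fold change -1.54 ± 0.75, adjusted p = 0.11, edgeR). Without dexamethasone replicate 2 the log2 fold change was -2.63 and the gene was called (adjusted p = 2.8e-14, edgeR). It was also called with all libraries in limma-voom (adjusted p = 2.8e-06). Ifit1 (chromosome 1, 252944103 to 252946170) had 16, 82 and 4 counts with dexamethasone and 4, 11 and 4 in the controls. The groups overlapped, the higher mean with dexamethasone came mostly from replicate 2, and the gene did not pass (adjusted p = 0.22, edgeR). Its log2 fold change of 2.46 was 0.58 without that library (adjusted p = 0.47) and 3.01 without dexamethasone replicate 3, where it was called (adjusted p = 0.025). Both Ifit1 and Ifit3 were also called at a coefficient of variation of 0.2 (adjusted p = 6.5e-09 and 1.2e-07), where all genes share one spread.

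The oligoadenylate synthetases make the messenger that activates RNase L, and Oas1a is the member of this class that the list holds from the Oas1 cluster. Oas1a (chromosome 12, 41200718 to 41211909) had 20, 29 and 15 counts with dexamethasone and 7, 6 and 8 counts in the controls. The groups did not overlap at this low depth, and the gene rose by 1.60 ± 0.32 (SE) on the log2 scale (adjusted p = 0.0023, edgeR), or by 1.24 without dexamethasone replicate 2 (adjusted p = 0.039). Of 6 other Oas1 copies in the table, named after their values were seen, 3 were tested and rose (Oas1f, Oas1g and Oas1i), while Oas1d, Oas1e and Oas1h had 0 counts with dexamethasone and 1, 0 and 2 counts in the controls. Oas1g was at 5.64 ± 0.828 CPM with dexamethasone and 2.49 ± 0.232 CPM in the controls (SD, n = 3 each). Oas1f was at 1.49 ± 0.584 CPM with dexamethasone and 0.526 ± 0.196 CPM in the controls. Their log2 rises were 1.17 and 1.48, and that of Oas1i was 1.13 (adjusted p = 1.6e-09, 7.6e-05 and 0.018, edgeR). Oas1i had 26, 24 and 20 counts with dexamethasone and 8, 6 and 18 in the controls. Its call was lost without dexamethasone replicate 2 (adjusted p = 0.057, edgeR). The same held without control replicate 1 or control replicate 2 (adjusted p = 0.069 and 0.10, edgeR). The copies are alike in sequence, and the sources used here do not say how reads matching several copies were counted. A RefSeq table for assembly GRCr8 lists Oas1g as another name of Oas1a, so how reads were split between these copies is uncertain. The same limit touches the Ifitm, Ifit, Mx and Gbp families.

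The Oasl pair, oligoadenylate synthetase-like genes 12703 bases apart on chromosome 12, went opposite ways. Oasl (chromosome 12, 47444104 to 47456894) had 2.42, 2.84 and 2.81 CPM with dexamethasone and 6.69, 5.88 and 5.80 CPM in the controls. Oasl2 (chromosome 12, 47469598 to 47482961) had 14.4, 17.0 and 15.2 CPM with dexamethasone and 13.5, 11.5 and 12.7 CPM in the controls. Oasl thus fell by 1.19 on the log2 scale (adjusted p = 1.8e-10, edgeR), while Oasl2 rose by 0.30 (adjusted p = 0.0012), a call not made at a coefficient of variation of 0.2 (adjusted p = 0.43). Within a library, the log2 ratio of Oasl2 to Oasl was 2.53 ± 0.081 with dexamethasone and 1.04 ± 0.080 in the controls (SD, n = 3 each). This pair was picked after its values were seen, so the ratio is given without a test.

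**Figure D2:**
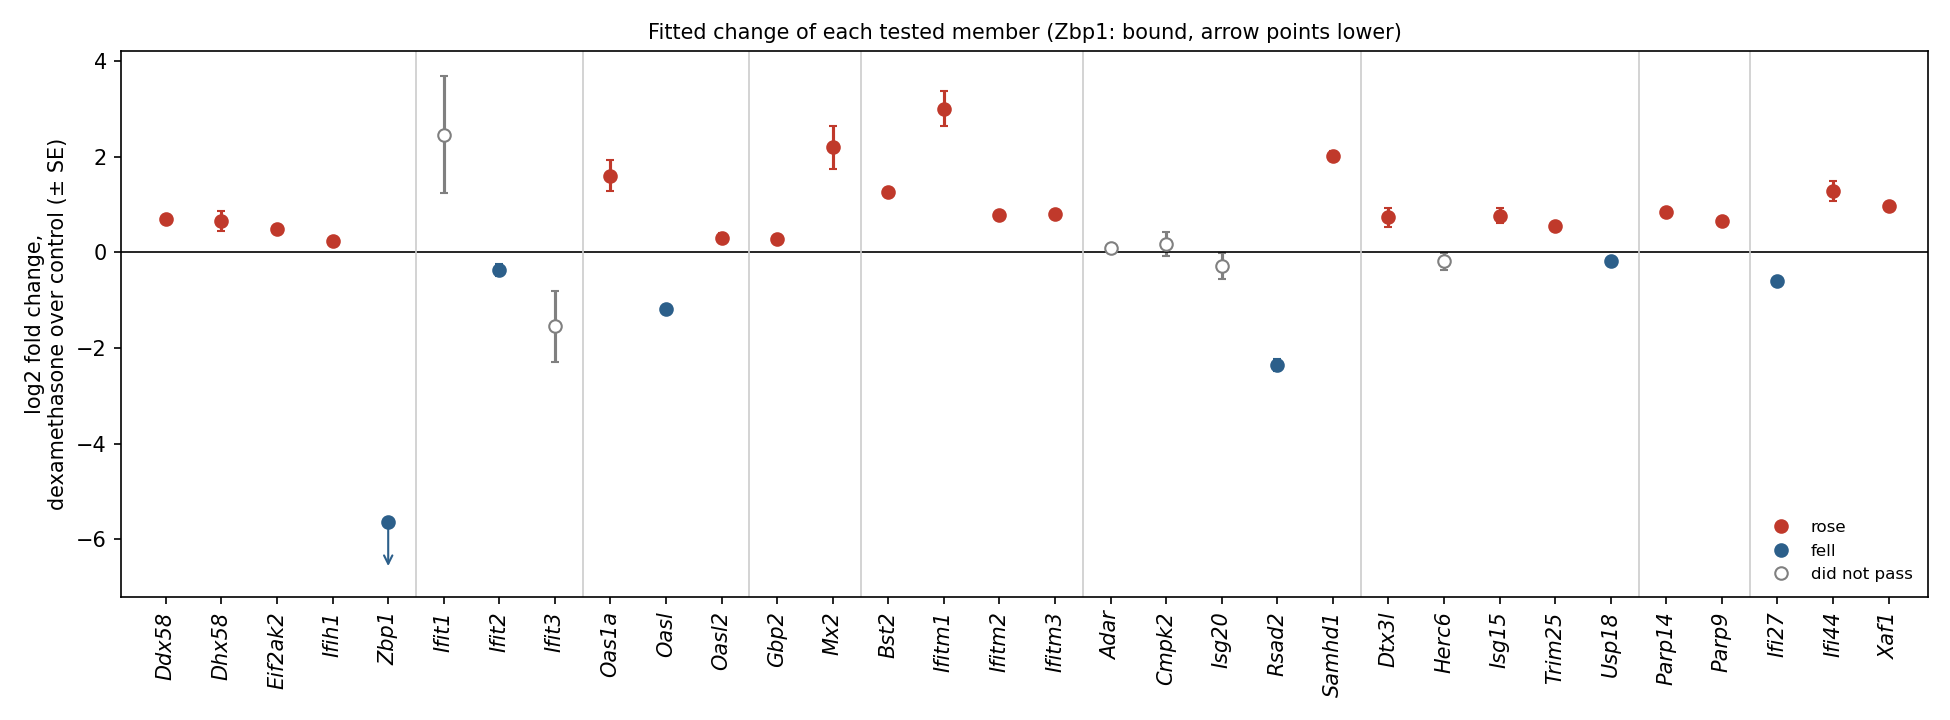
Log2 fold change of dexamethasone over control (vertical axis) for the 32 tested members, with the standard error as bars (red rose, blue fell, open grey did not pass) and Zbp1 at its bound of -5.64 with an arrow pointing lower. Ifit1 and Ifit3 have the widest bars, and the membrane factors and PARP genes are all above 0.

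The 4 listed membrane restriction factors all rose. Other Ifitm genes of the table, named after their values were seen, did not all go that way. Ifitm10 fell (log2 -1.08, adjusted p = 6.4e-05, edgeR), Ifitm5 did not pass (adjusted p = 0.18), and Ifitm6 and Ifitm7 were not tested. Ifitm3, which keeps enveloped viruses from fusing with endosomes (chromosome 1, 213810696 to 213811901), had 186, 172 and 185 CPM with dexamethasone and 96.6, 101 and 112 CPM in the controls. Ifitm2, of the same cluster, had 39.6, 39.5 and 37.8 CPM with dexamethasone and 22.6, 23.9 and 21.7 CPM in the controls. For both, every dexamethasone library lay well above every control, and the rises were 0.81 ± 0.071 and 0.78 ± 0.045 (SE) on the log2 scale (adjusted p = 9.5e-13 and 1.3e-16, edgeR). Ifitm1, between them on chromosome 1, was near the floor, with 26, 12 and 21 counts with dexamethasone and 2, 1 and 4 counts in the controls. The ratio of its counts was 8.43 (95% exact binomial interval 2.64 to 29.3, counting error only), and the gene rose (adjusted p = 2.1e-05, edgeR).

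Bst2, or tetherin, holds budding virus particles at the cell surface (chromosome 16, 19938784 to 19942353). It had 49.2, 42.8 and 47.0 CPM with dexamethasone and 18.2, 18.6 and 21.3 CPM in the controls. Every dexamethasone library was well above every control, and per kilobase the gene had the highest level among the members that rose at least 2-fold (log2 1.26 ± 0.092, adjusted p = 1.4e-20, edgeR). Tested against a fold change of 1.5, 10 of the 20 rises were still called, namely these 4 with Samhd1, Oas1a, Ifi44, Xaf1, Parp9 and Parp14. Of the 6 falls, those of Zbp1, Rsad2 and Oasl were called. Over all tested genes, 11.0% rose and 9.06% fell by that test.

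Of the GTPases, Gbp2, a guanylate-binding protein that attacks the membranes of vacuoles holding pathogens, was abundant and changed little. It had 129.9, 137 and 140.1 CPM with dexamethasone and 114, 113 and 109 CPM in the controls, a rise of 0.28 on the log2 scale (adjusted p = 1.4e-09, edgeR) that was lost at a coefficient of variation of 0.2 (adjusted p = 0.47). Mx2, the other Mx GTPase (chromosome 11, 38035450 to 38059950), had 4.00, 9.55 and 3.69 CPM with dexamethasone and 1.19, 1.42 and 1.099 CPM in the controls. Replicate 2 held 2.39 times the level of the next dexamethasone library, and all 3 were above all 3 controls. Mx2 rose by 2.20 ± 0.45 (SE) on the log2 scale (adjusted p = 0.021, edgeR), and by 1.64 without that library (adjusted p = 3.1e-09). The call was lost on leaving out control replicate 1, 2 or 3 (adjusted p = 0.08, 0.07 and 0.081).

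Among enzymes that act on nucleotides and RNA, 1 rose, 1 fell and 3 did not pass. Rsad2, or viperin, makes a nucleotide that ends viral RNA chains (chromosome 6, 45655954 to 45669148). It had 4.12, 5.27 and 4.28 CPM with dexamethasone and 25.3, 22.2 and 22.3 CPM in the controls. All dexamethasone libraries were far below all controls, and the level fell by 2.36 on the log2 scale (SE 0.13, adjusted p = 3.8e-26, edgeR). Its divergent neighbour Cmpk2, a mitochondrial nucleotide kinase that starts 14085 bases away, had 1.23, 1.13 and 1.01 CPM with dexamethasone and 0.726, 0.963 and 1.30 CPM in the controls. The groups overlapped and Cmpk2 did not pass (log2 0.17 ± 0.24, adjusted p = 0.59, edgeR). Within a library, the log2 ratio of Rsad2 to Cmpk2 was 2.02 ± 0.245 with dexamethasone and 4.59 ± 0.514 in the controls (SD, n = 3 each). This pair too was picked with its values in view, and the ratio was not tested.

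Samhd1, which hydrolyses the nucleotides that reverse transcription needs (chromosome 3, 153210829 to 153250641), had 10.9, 8.90 and 9.31 CPM with dexamethasone and 2.49, 2.25 and 2.50 CPM in the controls. All dexamethasone libraries were far above all controls, and the level was 4.03-fold higher (log2 2.01, adjusted p = 1.2e-18, edgeR). Adar, which edits adenosine in double-stranded RNA, stood at 45.2 ± 0.232 CPM with dexamethasone and 42.6 ± 0.940 CPM in the controls (SD, n = 3 each). The difference was small although the groups did not overlap (log2 0.09, adjusted p = 0.097, edgeR), and Adar was called with library size alone as the scaling (adjusted p = 0.016). Isg20, an RNA exonuclease, had overlapping groups and did not pass, at 1.48 ± 0.380 CPM with dexamethasone and 1.78 ± 0.336 CPM in the controls (adjusted p = 0.29, edgeR).

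The ISG15 system attaches and removes a ubiquitin-like tag. Isg15, the tag itself (chromosome 5, 173624310 to 173626248), had 5.38, 5.93 and 4.51 CPM with dexamethasone and 3.08, 2.66 and 3.50 CPM in the controls. Usp18, which strips the tag from proteins and also damps the type I interferon receptor, had 30.0, 33.3 and 31.5 CPM with dexamethasone and 35.6, 35.7 and 36.6 CPM in the controls. Isg15 thus rose by 0.77 and Usp18 fell by 0.19 on the log2 scale (adjusted p = 6.9e-06 and 0.0018, edgeR). At a coefficient of variation of 0.2 the call of Usp18 was not made (adjusted p = 0.66). Herc6, a ligase for ISG15 in mouse, had overlapping groups at 2.14 ± 0.118 CPM with dexamethasone and 2.44 ± 0.535 CPM in the controls (SD, n = 3 each) and did not pass (adjusted p = 0.39, edgeR). Trim25, a ubiquitin ligase of the RIG-I pathway, rose by 0.56 on the log2 scale (adjusted p = 1.6e-14, edgeR), with 60.6, 60.9 and 56.9 CPM with dexamethasone and 42.3, 38.2 and 40.4 CPM in the controls. This call too was not made at a coefficient of variation of 0.2 (adjusted p = 0.066).

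Parp9, Dtx3l and Parp14, enzymes and partners of ADP-ribosylation, lie near each other on chromosome 11 and all rose. Parp9 (chromosome 11, 67724076 to 67756799) had 101, 102 and 97.8 CPM with dexamethasone and 63.0, 63.7 and 63.4 CPM in the controls. Dtx3l, the ubiquitin ligase that binds PARP9, starts 1128 bases away on the other strand and had 15.6, 17.8 and 17.2 CPM with dexamethasone and 10.8, 11.8 and 7.79 CPM in the controls. Parp14, a mono-ADP-ribosyl transferase (chromosome 11, 68105369 to 68137535), had 142, 144 and 138 CPM with dexamethasone and 82.0, 76.2 and 78.6 CPM in the controls. The groups of each gene did not overlap, and the log2 rises were 0.66 ± 0.018, 0.73 ± 0.19 and 0.84 ± 0.036 (SE). Their adjusted p was 1.9e-20, 1.6e-05 and 5.7e-25 (edgeR), and Dtx3l did not pass against a fold change of 1.5 (adjusted p = 0.15).

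The last 3 members were Ifi27, Ifi44 and Xaf1. Ifi27, a small hydrophobic protein (chromosome 6, 127327959 to 127334428), had 14.7, 14.1 and 14.6 CPM with dexamethasone and 20.7, 21.7 and 23.6 CPM in the controls, and fell by 0.60 on the log2 scale (adjusted p = 3.4e-10, edgeR). Ifi44 (chromosome 2, 256897772 to 256915569) had 7.53, 9.95 and 6.67 CPM with dexamethasone and 3.27, 3.75 and 2.87 CPM in the controls, a rise of 1.28 (adjusted p = 2.9e-10). Xaf1, which binds and antagonises the apoptosis inhibitor XIAP, had 5.28, 5.41 and 5.15 CPM with dexamethasone and 2.72, 2.69 and 2.65 CPM in the controls, a rise of 0.97 (adjusted p = 3.4e-08). None of the 3 had overlapping groups.

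Within the dexamethasone group, replicate 2 was the highest library for 19 of 32 tested members, replicate 1 for 9 and replicate 3 for 3. Over all tested genes each of these libraries was the highest for 32.7% to 34.3%. Among the controls, replicates 1 to 3 were the highest for 14, 8 and 10 members. Of 40 other tested interferon-stimulated genes, dexamethasone replicate 2 was the highest of its group for 25. In that library 24 of 12909 genes with at least 20 counts in it had at least 2 times the CPM of both other dexamethasone libraries, and 3 of them were members (Ifit1, Ifit3 and Mx2). The other 5 libraries had 11 to 21 such genes each, with 0 members among them. Without dexamethasone replicate 2 the members gave 20 rises and 7 falls, the added fall being Ifit3, so the counts of rises and falls did not rest on it.

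**Figure D3:**
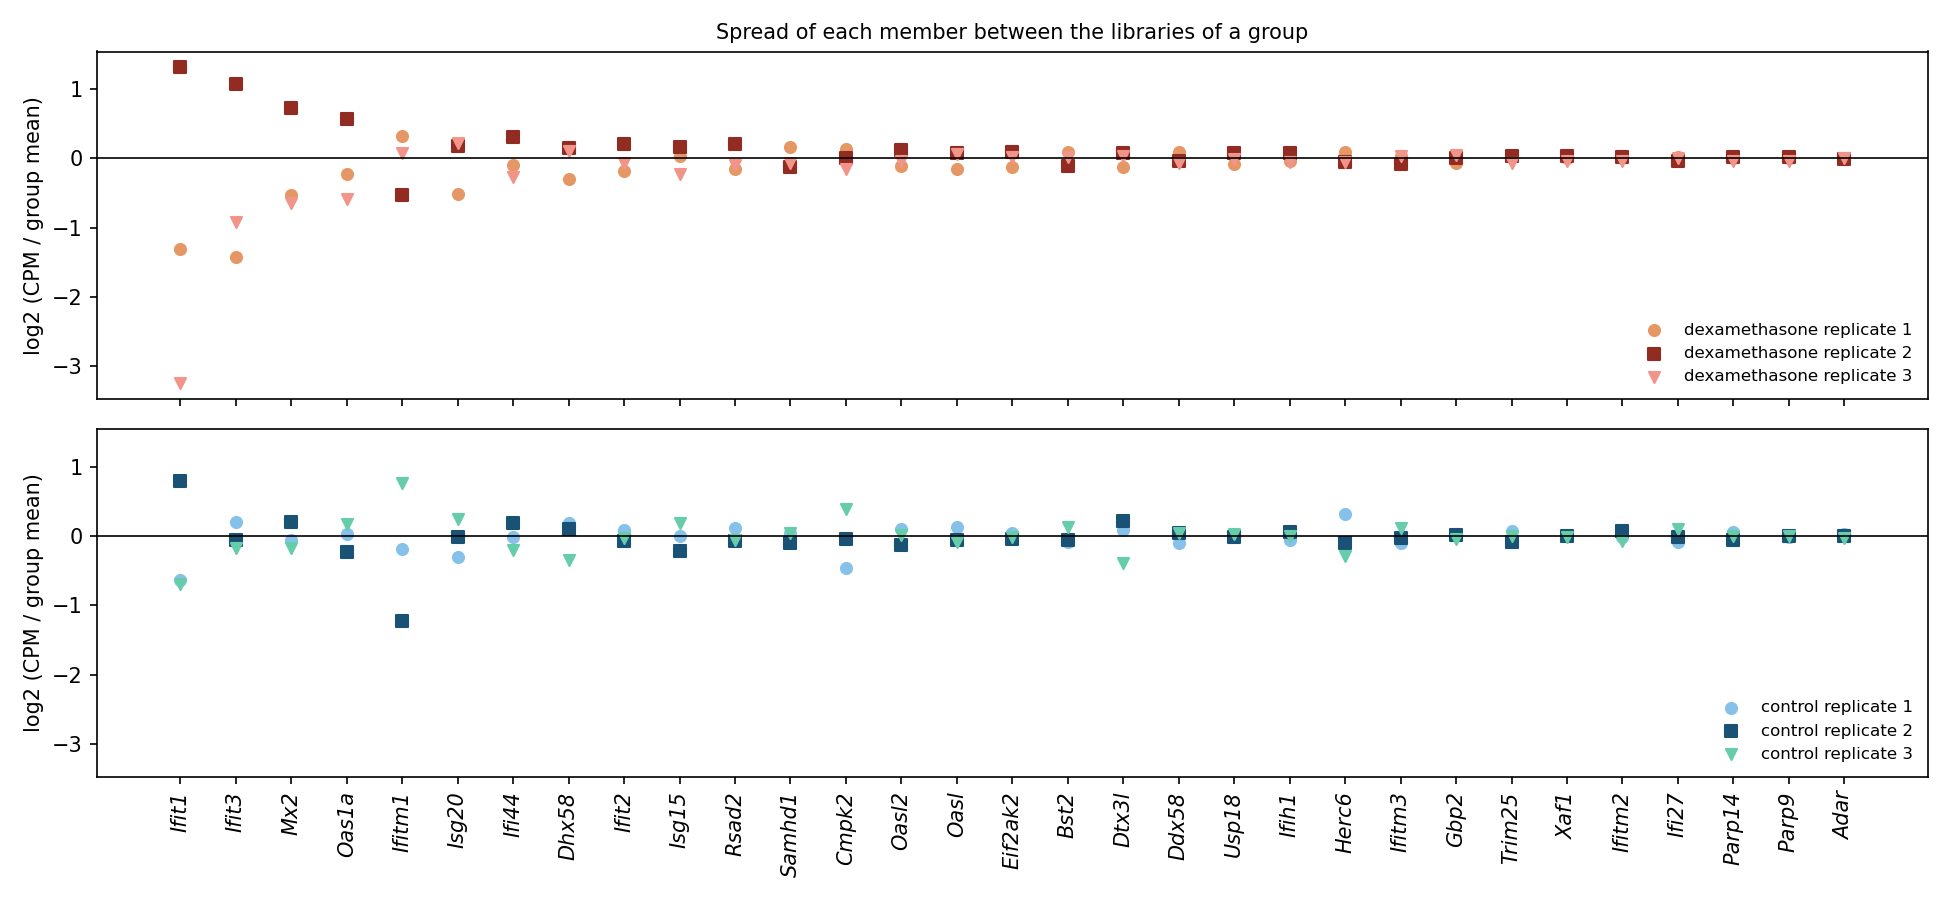
Log2 of each library's CPM over the mean of its group (vertical axis) for 31 members (all tested but Zbp1, which had no count with dexamethasone), ordered by their spread among the dexamethasone libraries, with those libraries above and the controls below. Dexamethasone replicate 2 (dark squares) is the highest point for Ifit1, Ifit3, Mx2 and Oas1a on the left, while Parp14, Parp9 and Adar on the right differ little between libraries.

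Upstream of these genes, the interferon genes themselves had few or no counts. Of 12 interferon ligand genes in the table, 8 had 0 counts in all libraries, Ifnb1 among them. Ifna11, Ifng and Ifnl3 had 3, 1 and 2 counts with dexamethasone and 0, 2 and 0 counts in the controls. Ifne, an epithelial interferon, was the only ligand tested, with 14 counts in all with dexamethasone and 102 in the controls, and fell by 2.83 on the log2 scale (adjusted p = 7.5e-07, edgeR).

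Receptors and kinases were well expressed, and the 9 of this list gave 5 rises, 2 falls and 2 without a call (median log2 0.17). That is 55.6% and 22.2%, against 32.3% and 31.7% of all tested genes. Ifnar1, a chain of the type I interferon receptor, had 139 ± 2.31 CPM with dexamethasone and 133 ± 2.20 CPM in the controls (SD, n = 3 each) and did not pass (adjusted p = 0.063, edgeR). That gene was called with library size alone (adjusted p = 0.0035), as it was without dexamethasone replicate 2 (0.043). The partner chain Ifnar2 fell by 0.32 on the log2 scale (adjusted p = 1.3e-05). The interferon gamma receptor chains Ifngr1 and Ifngr2 rose by 0.60 and 0.43 (adjusted p = 2.6e-13 and 1.2e-07, edgeR). Jak2, the kinase of the gamma receptor and of many cytokine receptors, had 402, 399 and 407 CPM with dexamethasone and 134, 141 and 131 CPM in the controls. This was the largest change of the 9, a rise of 1.57 ± 0.033 (SE, adjusted p = 1e-37, edgeR). Jak1 did not pass (log2 -0.05, adjusted p = 0.083), and Tyk2 rose by 0.32 (adjusted p = 0.00026). At a coefficient of variation of 0.2 the list gave 2 rises and 0 falls, against 14.1% and 12.0% of all tested genes.

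Among 9 tested transcription factors, 4 rose, 0 fell and 5 did not pass (median log2 0.10), so the share called was below the 64.0% of all genes. By direction, 44.4% rose and 0% fell, against 32.3% and 31.7% of all tested genes. Irf2, which binds the same element as Irf1, had 54.5, 57.9 and 59.6 CPM with dexamethasone and 35.5, 36.5 and 35.1 CPM in the controls. Stat2, a factor of type I signalling, had 30.6, 36.1 and 34.1 CPM with dexamethasone and 27.2, 27.5 and 27.6 CPM in the controls. In both genes every dexamethasone library was above every control, and the log2 rises were 0.68 and 0.29 (adjusted p = 3.2e-17 and 2.3e-05, edgeR). Irf9, the partner of STAT2, did not pass at 22.2 ± 0.625 CPM with dexamethasone and 23.2 ± 0.835 CPM in the controls (SD, n = 3 each, adjusted p = 0.38, edgeR). Irf1 did not pass either (log2 0.07, adjusted p = 0.38). Irf7, which amplifies the type I response, rose by 0.57 (adjusted p = 0.019), but not without dexamethasone replicate 2 (adjusted p = 0.15) or control replicate 2 (0.077). At a coefficient of variation of 0.2, 2 rises and 0 falls were called in the list, against 14.1% and 12.0% of all tested genes. Stat2 was not among those rises (adjusted p = 0.44).

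Adaptors of nucleic acid sensing, listed with Toll-like receptors, gave 8 rises and 1 fall among 9 tested (median log2 0.57). That is 88.9% and 11.1%, against 32.3% and 31.7% of all tested genes. The rises include Tlr4, named with its value in view, which is not a nucleic acid receptor (log2 0.86). The call of Tlr4 was lost without control replicate 2 (adjusted p = 0.054, edgeR). Tlr3, the endosomal receptor for double-stranded RNA, had 4.74, 5.81 and 5.196 CPM with dexamethasone and 1.74, 1.95 and 2.45 CPM in the controls. Myd88, an adaptor of Toll-like receptors, and Ikbke, a kinase that activates IRF3, had log2 rises of 0.72 and 0.52, and Tlr3 one of 1.35 (adjusted p = 1.6e-12, 1.8e-17 and 2.1e-10, edgeR). Traf3, named with its value in view, was the one that fell (log2 -0.21, adjusted p = 0.0029, edgeR), a call lost without control replicate 1 (adjusted p = 0.069). The imposed spread of 0.2 left 4 rises and 0 falls in this list, and 2 rises and 2 falls among the inhibitors that follow. Inhibitors of interferon signalling gave 5 rises, 4 falls and 3 not passing among 12 tested (median log2 0.10). These shares of 41.7% and 33.3% lay near the 32.3% and 31.7% of all tested genes. Ptpn2, a phosphatase that acts on JAK kinases, fell by 0.83, with 41.8 ± 0.894 CPM with dexamethasone and 74.5 ± 0.905 CPM in the controls (SD, n = 3 each). The relative Ptpn1 rose by 0.50, and Nlrx1, a mitochondrial inhibitor of MAVS, fell by 0.998. Socs1, the feedback inhibitor of JAK kinases, was at 0.426, 0.567 and 0.246 CPM with dexamethasone and 0.156, 0.203 and 0.0999 CPM in the controls. It rose by 1.40 (adjusted p = 0.015, edgeR), a call lost without dexamethasone replicate 2 (adjusted p = 0.089) or control replicate 3 (0.068).

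Interferon-stimulated genes outside the 35 mostly rose. The table held 45 of them, of which 40 were tested, and 30 rose, 3 fell and 7 were not called, and the median log2 fold change was 0.49. Rises were 75% and falls 7.5% of those tested, against 32.3% and 31.7% of all tested genes. Sp100, a nuclear body protein, had 103, 113 and 109 CPM with dexamethasone and 36.8, 37.4 and 36.3 CPM in the controls. Sp140, a relative of it, and Trim21, an antibody receptor inside the cell, rose with it, and the log2 rises were 1.56, 0.82 and 1.23 (adjusted p = 2.2e-32, 1.6e-25 and 6.1e-21, edgeR). Those 3 falls, named with their values in view, were Ifi27l2b, a relative of Ifi27 (log2 -2.45), Mlkl, the executor of necroptosis (log2 -0.75), and Nmi (log2 -0.23). Against a fold change of 1.5, 11 of the 30 rises and 2 of the 3 falls were called, and at a coefficient of variation of 0.2, 15 rises and 2 falls.

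**Figure D4:**
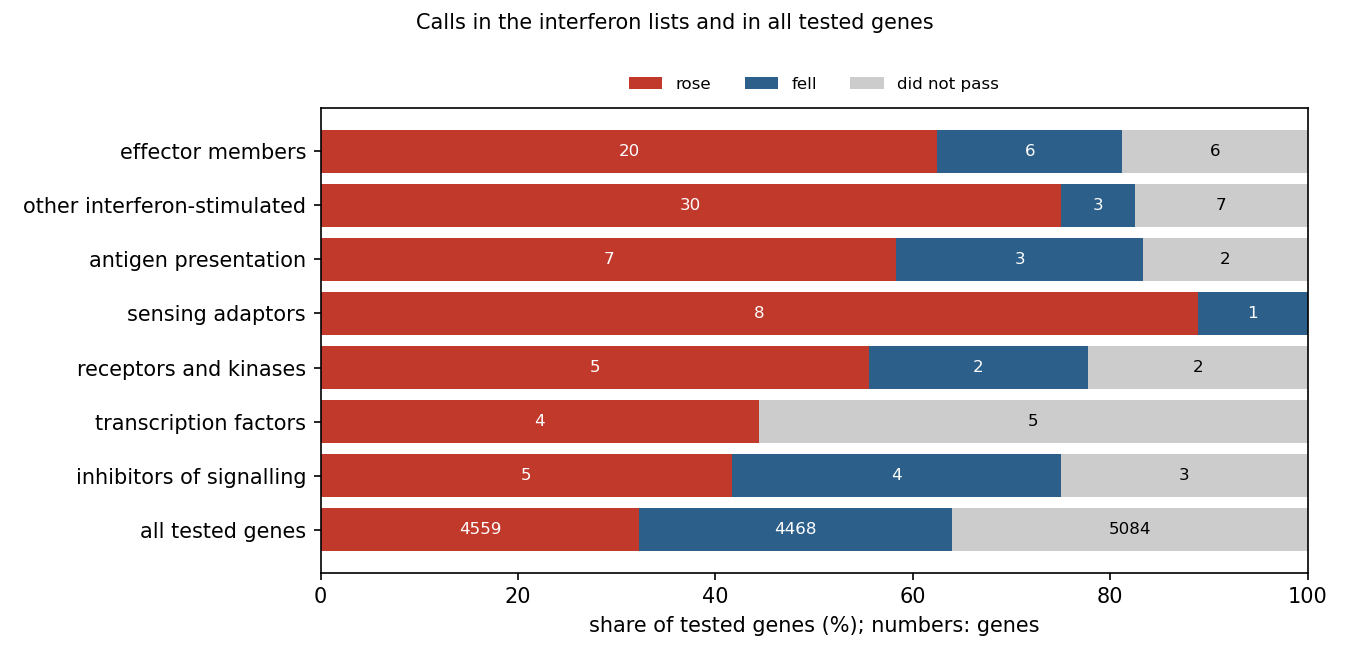
Share of tested genes in percent (horizontal axis) that rose (red), fell (blue) or did not pass (grey) in 7 interferon lists and, at the bottom, in all 14111 tested genes, with the number of genes printed in each segment. Rises take 62.5% of the effector members and 32.3% of all tested genes.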

How the data were processed

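The deposited values were raw read counts per gene in 6 libraries, with each gene's exon coordinates and summed exon length in bases, per the file headers. The sources used here do not say how reads were aligned, counted, assigned to a strand or shared between similar genes. The build named in the submitters' processing notes is mm10, of mouse, but the genes are those of rat. Coordinates stand as deposited, in a rat build that these sources do not name. Per the labels' protocols, libraries were made from column-purified total RNA with a SMARTER mRNA kit.

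Of 30211 genes, filterByExpr by group kept 14111. After TMM scaling, edgeR 4.0.16 in R 4.3.3 gave the tests (robust quasi-likelihood, dexamethasone against control, no covariate, Benjamini-Hochberg over all tested genes). Standard errors come from log2 CPM with a prior count of 2. Because 70.3% of values from 1 to 20 counts were even, a floor of 6 counts was used, chosen after those values were seen, and it came to 0.142 to 0.170 CPM by library. Intervals are exact 95% binomial intervals on counts divided by 2, which treats the counts as mates of read pairs, and cover counting error only.

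Alternatives were DESeq2 1.42.0, its size factors, library size alone, limma-voom (limma 3.58.1), no filter, a coefficient of variation of 0.2, a test against a fold of 1.5, the replicate number as a block, and each library left out. On simulated data over 14111 genes, the test called 25 of 50 genes changed by 1.2-fold, 34 of 50 by 1.5-fold, 39 of 50 by 2-fold and 49 of 50 by 4-fold. Only these genes were changed there, whereas 64.0% of tested genes were called in the data. The adjusted p was therefore stricter in the simulation, and these shares do not give the power of the real comparison. The members and the lists were chosen with earlier results of these data known. Every member was named, as were the 3 genes with the smallest p of each other list (all called ones where there were 1 or 2) and a fixed set of receptors, kinases, transcription factors and glucocorticoid targets. Others are named as chosen with their values in view. Promoter sequences were not analysed here, and a gene that the rule names is not reported here. Of the 35 symbols 34 were in a RefSeq gene table (GRCr8), and Ddx58 as a synonym. No member's exons overlapped those of another gene in the table.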

Additional observations from a re-analysis of the deposited data

How the results depend on the processing

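In the 14 other settings, no tested member changed direction where it was called there or in the main fit. Changes of direction among uncalled values were not counted. Of 448 values 417 kept their call, and 16 of the 32 tested members had another call in some setting. Over all genes, 1993 rose and 1700 fell with the coefficient of variation set to 0.2, and 1549 rose and 1278 fell against a fold of 1.5, which also left 10 rises and 3 falls among the members. Leaving out 1 library gave 4305 to 4435 rises and 4190 to 4303 falls over all genes, and 19 to 21 rises and 6 to 7 falls among the members. DESeq2, its size factors and the fit with no filter on low counts changed no call of a member. The median log2 fold change of the members stayed between 0.54 and 0.65. Members with few counts (Ifit1, Ifitm1, Oas1a, Mx1) are limited by depth. The replicate numbers did not pair the libraries: deviations of same-numbered libraries correlated at -0.00784 to 0.0203 over 14111 genes, and not every library correlated best with its own number. With the replicate block, 4553 genes rose and 4438 fell, and among the members 21 rose and 6 fell, the added call being Ifit1 (log2 2.29, adjusted p = 7.5e-05, edgeR).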

Other observations

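Among 12 genes of antigen presentation, which interferon gamma induces, there were 7 rises, 3 falls and 2 without a call, and their median log2 fold change was 0.13. Rises were 58.3% and falls 25%, against 32.3% and 31.7% of all tested genes. At a coefficient of variation of 0.2 there were 3 rises and 2 falls. Nlrc5, the activator of class I genes, had 8.29, 8.48 and 8.10 CPM with dexamethasone and 2.02, 2.20 and 1.87 CPM in the controls, and Psmb9, a subunit of the immunoproteasome, had 10.02, 9.81 and 11.5 CPM with dexamethasone and 3.89, 4.05 and 3.17 CPM in the controls. They rose by 4.07-fold and 2.82-fold (adjusted p = 4e-18 and 1.2e-15, edgeR). The 3 that fell were Cd74 (log2 -3.57), the class II chaperone, Ciita (log2 -0.78), the activator of class II genes, and B2m (log2 -0.26), the class I light chain, the last 2 named after their values were seen. Cd74 is also a gene of macrophages and other immune cells, and the macrophage markers Cd53, Lyz2 and Cd68 fell too (log2 -3.43, -1.76 and -1.25), with 0 rises among 6 tested. Their part in the fall of Cd74 was not tested.

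Other guanylate-binding genes, named after their values were seen, gave 2 rises and 2 without a call among 4 tested, and Gbp1 was not tested. Gbp3 had 36, 28 and 14 counts with dexamethasone and 11, 12 and 9 in the controls. It rose by 1.28 on the log2 scale (adjusted p = 0.0063, edgeR), a call lost without dexamethasone replicate 1 (adjusted p = 0.056). Gbp4 had 7.83 ± 0.115 CPM with dexamethasone and 4.51 ± 0.350 CPM in the controls (SD, n = 3 each) and rose by 0.79 on the log2 scale (adjusted p = 4.2e-08, edgeR). Gbp5 did not pass (log2 -0.23, adjusted p = 0.51, edgeR), nor did Gbp6, at 7.35 ± 0.312 CPM with dexamethasone and 6.51 ± 0.924 CPM in the controls (adjusted p = 0.16, edgeR).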
